A study of Bos taurus with 48 samples.

Results

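Whole blood of Holstein-Friesian (H-F) and Jersey (J) bull calves, taken 1 day after the end of weaning (d 1), was compared by RNA sequencing. The members were the 16 libraries of that day, 8 of H-F and 8 of J calves, out of the 48 libraries of the series, and each library was a different calf. The same calves were also sampled at d -14, 1 day before the milk replacer was first reduced, and at d 8. All calves were healthy bulls housed in groups on milk replacer and concentrate, which the H-F calves had up to a set allowance that they never ate in full and the J calves without limit, and all were weaned gradually, the milk replacer being brought from 6 litres down to 0 litres over 14 days (d -13 to d 0). No calf was left unweaned, so d 1 had no control group other than the same calves on the other days. The H-F calves came from 1 farm and the J calves from 2 other farms, the J calves were older on arrival, and the J calves had more passive immunity from the dam, so breed cannot be told apart from source herd, age or early immunity in these samples.

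Weaning withdraws milk and moves a calf to solid feed alone, and an abrupt removal of milk can raise cortisol and the share of neutrophils in blood. Blood carries such a response in several sets of genes. Glucocorticoid targets follow cortisol, immediate early genes such as FOS and the EGR family are switched on within minutes of a stimulus, and cytokines, chemokines and prostaglandin enzymes are made by activated leukocytes. Whole blood also holds platelets, which have no nucleus but carry messenger RNA from the megakaryocyte, and B cells, T cells, monocytes and granulocytes in shares that differ between animals. A lower value of a cell type's genes can mean fewer of those cells or less RNA in each, and in bulk blood these cannot be told apart.

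Counts on genes and spike-ins ranged from 28088019 to 37497763 in the H-F libraries of d 1 and from 26219017 to 39095624 in the J libraries. J calf 85, the calf left out of the tests, had the lowest total and stood apart from the other J calves at d 1. It had the highest value of the breed in 4072 genes and the lowest in 4076 of the 12394 genes compared, against at most 2835 and 2688 genes for any other J calf. Its mean distance to the other J calves was 2.26, and for the other 7 calves the mean distance ran from 1.80 to 2.06 (root mean square log2 difference over the 500 genes that differed most in each pair). The results below are for 8 H-F and 7 J calves, with J calf 85 shown beside them and with the result for all 16 calves given where it ended or made the call of a gene named here.

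At d 1, 473 of 12677 genes (3.73%) were differentially expressed (DEG), with a Benjamini-Hochberg adjusted p under 0.1 by the quasi-likelihood test of edgeR and a fold change of at least 1.5 (0.585 on the log2 scale). Of these, 240 (1.89%) were higher (increased) and 233 (1.84%) lower (decreased) in J than in H-F calves. The median log2 fold change was 0.79 for the increased genes, -0.83 for the decreased genes and -0.00375 for all genes tested. Of the DEG, 337 differed by less than 2-fold. The calves' levels, as CPM (the gene's share of a library's reads, scaled so that libraries can be compared), did not overlap for 31 of the DEG, while over all genes tested they did not overlap for 82 genes (0.647%). With all 16 calves, 761 of 12717 genes (5.98%) were called, 479 increased and 282 decreased, and 432 of the 473 were among them. The spread behind each SE and p was estimated from 45 libraries of 15 calves on all days, with no calf term. Libraries of 1 calf correlated at 0.404 to 0.846, so the spread rests on fewer independent values than were counted, and p may be too small. The 15 libraries of d 1 alone gave 345 DEG.

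Chromogranin A (CHGA), a protein of the secretory granules of neuroendocrine cells, had the smallest p of the named genes increased in J. Its level in the H-F calves was 0.245 CPM at the lowest, 0.304 at the median and 0.496 at the highest, and in the 7 J calves 1.08, 1.43 and 2.12 CPM. The breeds were fully separate, with a log2 fold change of 2.20 (SE 0.28, adjusted p = 3.42e-06 by edgeR). The level was low in both breeds, and J calf 85 had 0 counts, below all calves of both breeds. A gene was tested only if it had over 1 CPM in at least 8 libraries. No H-F calf reached 1 CPM of CHGA on any day, so it was tested only because J calves were high.

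EXTL1, an enzyme that adds sugars to heparan sulfate chains, had 0.248 to 1.39 CPM (median 0.331) in H-F and 1.398 to 4.68 CPM (median 2.97) in J calves. Its log2 fold change was 2.60 (SE 0.42, adjusted p = 0.000222 by edgeR), and the ranges only just failed to meet. J calf 85 had 0.222 CPM of EXTL1, a value under the whole H-F range.

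JSP.1, a gene of the major histocompatibility complex (MHC) class I, which presents peptides to cytotoxic T cells, ranged from 237.6 to 945 CPM (median 511) in H-F and from 1091 to 2421 CPM (median 1376) in J calves. All 7 J calves lay above all H-F calves, and the log2 fold change was 1.62 (SE 0.27, adjusted p = 0.000386 by edgeR). Another MHC class I heavy chain gene, listed as BOLA, went the other way, with 1889 to 2508 CPM (median 2355) in H-F and 842 to 1391 CPM (median 1130) in J calves. The breeds did not overlap, and the log2 fold change of BOLA was -1.07 (SE 0.12, adjusted p = 9.55e-07 by edgeR), the smallest p of the named genes decreased in J. Class I genes are nearly identical copies that differ between breeds in number and sequence, so counts of reads at single places of 1 reference genome are uncertain for both.

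The other named genes of smallest p that were increased in J were KCTD11, DOC2G and CDH20. KCTD11, an adaptor of a ubiquitin ligase, had 8.20 to 10.7 CPM (median 9.32) in H-F and 9.95 to 39.3 CPM (median 21.1) in J calves, and its log2 fold change was 1.23 (SE 0.19, adjusted p = 0.000197 by edgeR). The H-F calves were closely grouped and the J calves widely spread, with J calf 6 inside the H-F range. DOC2G, a protein with calcium-binding C2 domains, had 3.13 to 6.84 CPM (median 4.76) in H-F and 6.53 to 27.1 CPM (median 11.8) in J calves, a log2 fold change of 1.55 (SE 0.25, adjusted p = 0.000265 by edgeR). CDH20, a cadherin of cell junctions, was separate between the breeds, with 0.852 to 3.73 CPM in H-F, 4.59 to 8.45 CPM in J calves and a log2 fold change of 1.39 (SE 0.24, adjusted p = 0.000496 by edgeR).

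Among genes with decreased transcription in J, the trypsinogen gene PRSS2 had the widest gap. It ranged from 2.87 to 81.7 CPM (median 40.8) in H-F and from 0.466 to 1.70 CPM (median 0.953) in J calves, and its log2 fold change was -5.27 (SE 0.84, adjusted p = 0.000222 by edgeR). All J calves, J calf 85 included at 0.628 CPM, lay below all H-F calves, although the H-F calves themselves differed widely. Trypsinogens are a family of close copies, and reads that matched several of them were not counted.

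RET, the receptor tyrosine kinase for neurotrophic factors of the GDNF family, had 4.33 to 17.1 CPM (median 8.67) in H-F and 1.83 to 3.35 CPM (median 2.48) in J calves (log2 fold change -1.86, SE 0.28, adjusted p = 0.000163 by edgeR). CALCRL, the shared receptor chain for calcitonin gene-related peptide and adrenomedullin, had 23.1 to 51.5 CPM in H-F and 13.1 to 22.2 CPM in J calves (log2 fold change -0.998, SE 0.16, adjusted p = 0.000218 by edgeR). DHRS7, a dehydrogenase/reductase, had 26.9 to 50.1 CPM in H-F and 15.7 to 22.6 CPM in J calves (log2 fold change -0.97, SE 0.14, adjusted p = 6.81e-05 by edgeR). None of the 3 overlapped between the breeds. The cytochrome c oxidase gene COX7C overlapped in 1 J calf, with 9.88 to 21.2 CPM in H-F and 6.29 to 11.6 CPM in J calves (log2 fold change -0.98, SE 0.16, adjusted p = 0.000355 by edgeR). All 12 of these genes were still called when any 1 calf was left out and when all 16 calves were used. Each differed in the same direction at d -14 and at d 8, in the same calves.

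**Figure D1:**
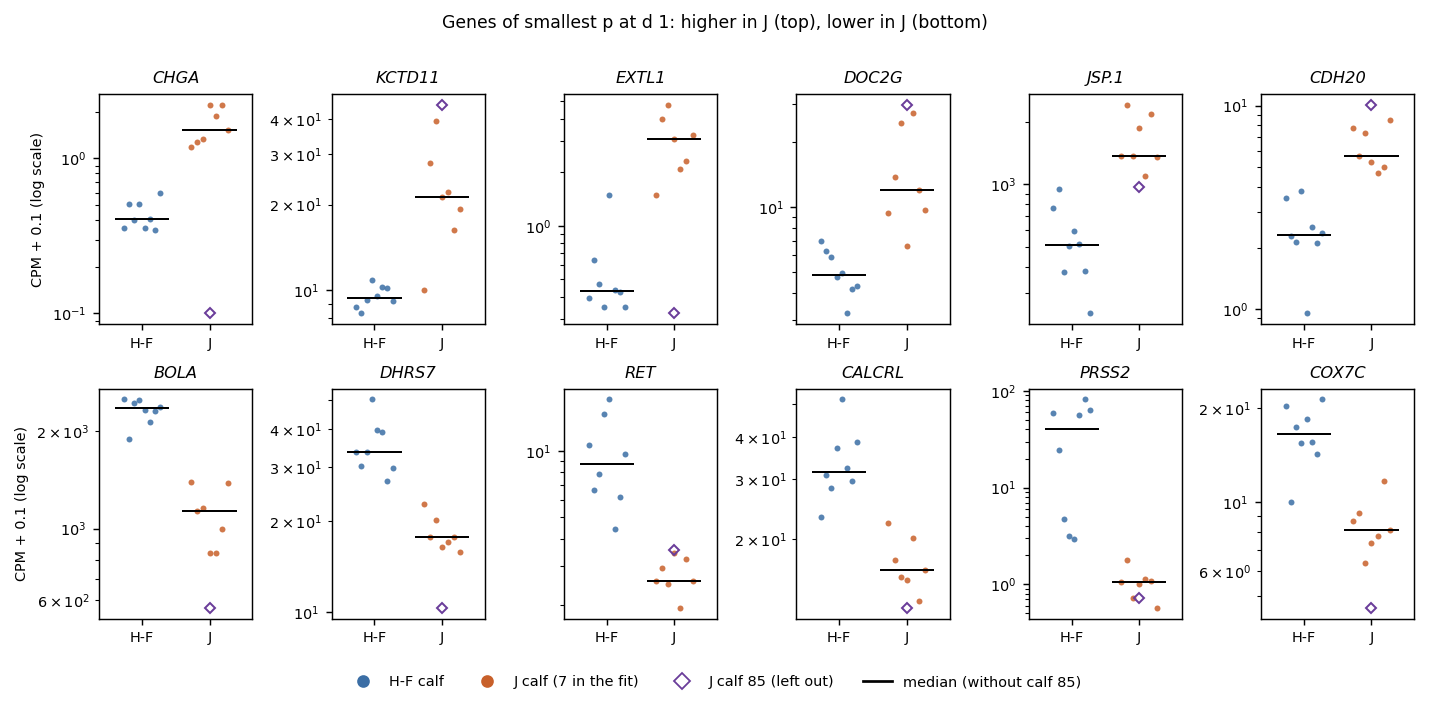
CPM at d 1 (log axis, 0.1 added so that 0 can be drawn) of the 12 genes with the smallest p, 1 point a calf, with the median of each breed as a bar and J calf 85 as an open diamond. The breeds are apart in 9 of the panels and meet for KCTD11, DOC2G and COX7C, and J calf 85 lies below every H-F calf for CHGA and EXTL1.

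The increased genes leaned on 1 calf. J calf 9 had the highest value of the 7 J calves in 169 of the 240 increased genes, against 7 to 16 genes for each of the other 6 calves. Over all genes tested it was the highest of the 7 in 3820 of 12677. In the decreased genes the lowest J calf was spread more evenly, from 14 genes for J calf 6 to 51 for J calf 60. Without J calf 9 the number of DEG fell to 284, with 113 increased and 171 decreased, and 111 of the 240 and 160 of the 233 were still called. The increased genes then had a median log2 fold change of 0.64, and 142 of them still differed by at least 1.5-fold. J calf 85, which took no part in calling them, lay above all other 7 J calves in 108 of the 240 increased genes and within or below the H-F range in 37, and within or above the H-F range in 106 of the 233 decreased genes. The 108 stand beside the 4072 of 12394 genes given above in which it was the highest J calf. Of the 473 DEG, 202 were called whichever calf was left out, 94 increased and 108 decreased.

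**Figure D2:**
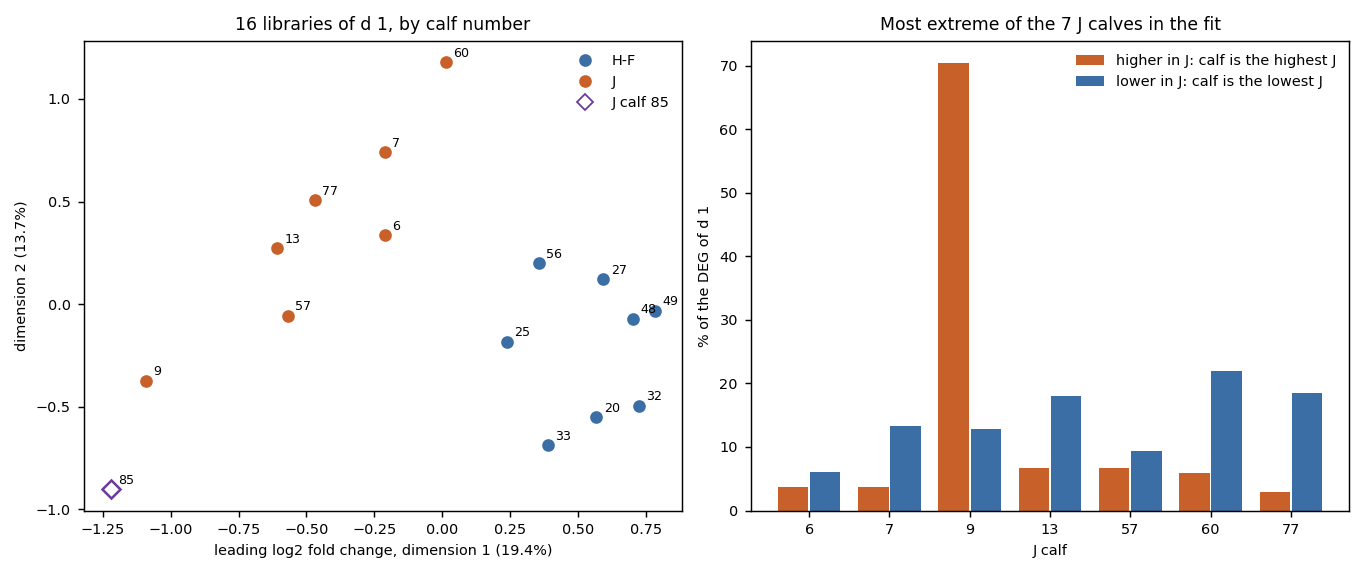
Left, the 16 libraries of d 1 placed by leading log2 fold changes (dimension 1 took 19.4% and dimension 2 took 13.7% of the variation), with calf numbers; right, the percentage of the 240 increased DEG in which each of the 7 J calves was the highest and of the 233 decreased DEG in which it was the lowest. J calves 9 and 85 lie farthest along dimension 1, and J calf 9 is the highest J calf in most of the increased DEG.

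The stress, function and cell type lists could be read only in part. Gene symbols were known here only for genes called between the breeds in the study on some day, so a list member without a breed difference had no name, and the share of named members called says nothing about the list. The same holds for medians and sums over named members. Over all genes tested, 1.89% were increased and 1.84% were decreased DEG. No member of the lists of oxidative stress genes or of the unfolded protein response could be matched. The only named member of the glucocorticoid list was IL1R2, and of the heat shock list HSPB8. Of the 20 single stress genes looked for, FOS, CDKN1A, IL1B and PTGS2 were found, and values for the other 16, among them FKBP5, TSC22D3 and NR3C1, are not given.

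Immediate early genes were called in both directions. Of 6 named members (of 31 on the list), ATF3, EGR2 and FOS were decreased, EGR3 was increased, and FOSB and DUSP2 did not reach the thresholds. All 6 had a name only because the study had called them on some day. ATF3, a transcription factor induced by many stresses, had 8.70 to 13.8 CPM (median 10.3) in H-F and 5.17 to 8.20 CPM (median 7.55) in J calves. Every J calf was below every H-F calf, with a log2 fold change of -0.65 (SE 0.15, adjusted p = 0.00813 by edgeR). EGR2 had 5.14 to 13.1 CPM (median 6.50) in H-F and 2.83 to 6.44 CPM (median 3.88) in J calves (log2 fold change -0.84, SE 0.21, adjusted p = 0.0125 by edgeR). FOS, a subunit of the AP-1 transcription factor, had 27.1 to 66.9 CPM (median 40.6) in H-F and 17.5 to 35.2 CPM (median 27.6) in J calves (log2 fold change -0.65, SE 0.21, adjusted p = 0.0381 by edgeR). The calls of FOS and ATF3 sat at the fold threshold. FOS was lost without H-F calf 32, H-F calf 33 or J calf 13, with log2 fold changes of -0.56 to -0.54, and ATF3 without H-F calf 33, at -0.58. FOSB differed by -0.55 (adjusted p = 0.136 by edgeR) but was called with all 16 calves (-0.61, adjusted p = 0.0584 by edgeR), which made 4 decreased members, and the phosphatase DUSP2 by -0.53 (adjusted p = 0.0274 by edgeR, below the 1.5-fold threshold). At d -14 the log2 fold changes of ATF3 and FOS were -0.64 and -0.78, and at d 8 they were -0.36 and -0.26.

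EGR3, which limits the activation of lymphocytes, went against the rest of that list and was called at d 1 and on neither other day. It had 0.614 to 1.87 CPM (median 1.5) in H-F and 1.72 to 5.15 CPM (median 2.64) in J calves, and 5 of the 7 J calves lay above the whole H-F range. The log2 fold change was 1.01 (SE 0.25, adjusted p = 0.0103 by edgeR), and 0.18 at d -14 and 0.53 at d 8. Medians in H-F calves were 1.96 CPM at d -14 and 1.81 CPM at d 8, both above that of d 1. In J calves they were 2.38 CPM at d -14 and 2.97 CPM at d 8. The difference at d 1 exceeded the mean of the other days by 0.65 (SE 0.30, unadjusted p = 0.0366), and by 0.63 (SE 0.21, unadjusted p = 0.00477) with calf as a block in edgeR. Neither passed adjustment (adjusted p = 0.9995 and 0.796 by edgeR).

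The p53 target CDKN1A, which halts the cell cycle, had 13.9 to 29.5 CPM (median 23.4) in H-F and 10.4 to 22.5 CPM (median 12.96) in J calves. It was decreased by 0.66 on the log2 scale (SE 0.20, adjusted p = 0.0311 by edgeR), with overlap between the breeds. GADD45G, of the same list, differed by -0.31 (adjusted p = 0.468 by edgeR). The small heat shock protein HSPB8 differed by 0.76 (SE 0.35, adjusted p = 0.151 by edgeR).

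IL1R2, a decoy receptor that takes up interleukin 1 without signalling and that glucocorticoids induce, had 4.24 to 10.1 CPM (median 6.71) in H-F and 1.78 to 7.50 CPM (median 2.84) in J calves. It was decreased at d 1, by -0.97 on the log2 scale (SE 0.29, adjusted p = 0.0294 by edgeR), and the difference was -1.30 at d -14 and -1.93 at d 8. The difference at d 1 was thus the smallest of the 3 days, and it had the smallest p of all named genes for a departure from the other days when calf was a block (0.64, SE 0.18, unadjusted p = 0.0012, adjusted p = 0.796 by edgeR). Median levels in J calves were 3.26 CPM at d -14 and 1.67 CPM at d 8, and in H-F calves 8.22 and 7.25 CPM.

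Of 34 members of the pro-inflammatory list, 7 symbols were matched, at 8 genes. Of these 8 genes, 7 were decreased in J and 0 increased, with a median log2 fold change of -0.81. Over all genes tested 1.84% were decreased DEG. The 8 had a name only because the study had called them on some day, so the count says nothing about the list. CCL3, a chemokine that draws monocytes and lymphocytes, had 2.19 to 6.41 CPM (median 4.79) in H-F and 1.62 to 3.18 CPM (median 2.29) in J calves at the gene ENSBTAG00000025250 (log2 fold change -1.01, SE 0.24, adjusted p = 0.00871 by edgeR). Reads that matched both this gene and a near copy with the same symbol, ENSBTAG00000003289, were not counted. The near copy was decreased by 0.86 (adjusted p = 0.0703 by edgeR), but its log2 fold change was -0.26 (adjusted p = 0.616 by edgeR) with all 16 calves. Its call was also lost without H-F calf 20, H-F calf 33, or J calves 6, 9, 57, 60 or 77, with log2 fold changes of -0.90 to -0.63.

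IL18RAP, part of the receptor for interleukin 18, had 5.29 to 23.5 CPM (median 10.3) in H-F and 3.39 to 10.1 CPM (median 6.29) in J calves (log2 fold change -0.85, SE 0.27, adjusted p = 0.0392 by edgeR). ICAM1, an adhesion molecule of activated cells, had 2.36 to 6.37 CPM (median 4.21) in H-F and 1.62 to 4.31 CPM (median 2.52) in J calves (log2 fold change -0.71, SE 0.22, adjusted p = 0.0348 by edgeR). CD83, a marker of mature dendritic cells, had 13.7 to 29.9 CPM in H-F and 12.3 to 18.1 CPM in J calves (log2 fold change -0.63, SE 0.20, adjusted p = 0.0395 by edgeR). The ranges of the breeds overlapped for all 3. Leaving out J calf 13 or H-F calf 33 ended the call of IL18RAP (adjusted p = 0.102 and 0.103 by edgeR), and leaving out H-F calf 32, H-F calf 33 or J calf 13 that of CD83 (log2 fold changes of -0.58 to -0.56). ICAM1 and CD83 were called at d 1 and on neither other day.

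PTX3, a secreted pattern recognition protein, had 0.475 to 7.14 CPM in H-F and 0.210 to 1.66 CPM in J calves (log2 fold change -1.84, SE 0.64, adjusted p = 0.0563 by edgeR), and lost its call without H-F calf 20 or J calves 9, 13 or 57 (adjusted p of 0.105 to 0.127 by edgeR). PTGS2, the inducible cyclooxygenase that makes prostaglandins, had 4.25 to 7.58 CPM (median 5.16) in H-F and 1.222 to 4.56 CPM (median 3.18) in J calves (log2 fold change -0.78, SE 0.30, adjusted p = 0.0799 by edgeR). This call was near the threshold and was lost without any 1 of 8 calves (J calves 6, 7, 9 and 13, or H-F calves 32, 33, 48 and 49, with adjusted p of 0.101 to 0.168 by edgeR). IL1B, the gene of interleukin 1 beta and the member not called, had 74.2 to 226.8 CPM (median 111) in H-F and 71.0 to 141.5 CPM (median 93.2) in J calves, a log2 fold change of -0.46 (SE 0.24, adjusted p = 0.198 by edgeR). J calf 85 had 276 CPM of IL1B at d 1, above every other calf of the day, and the log2 fold change with all 16 calves was -0.15 (adjusted p = 0.681 by edgeR).

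**Figure D3:**
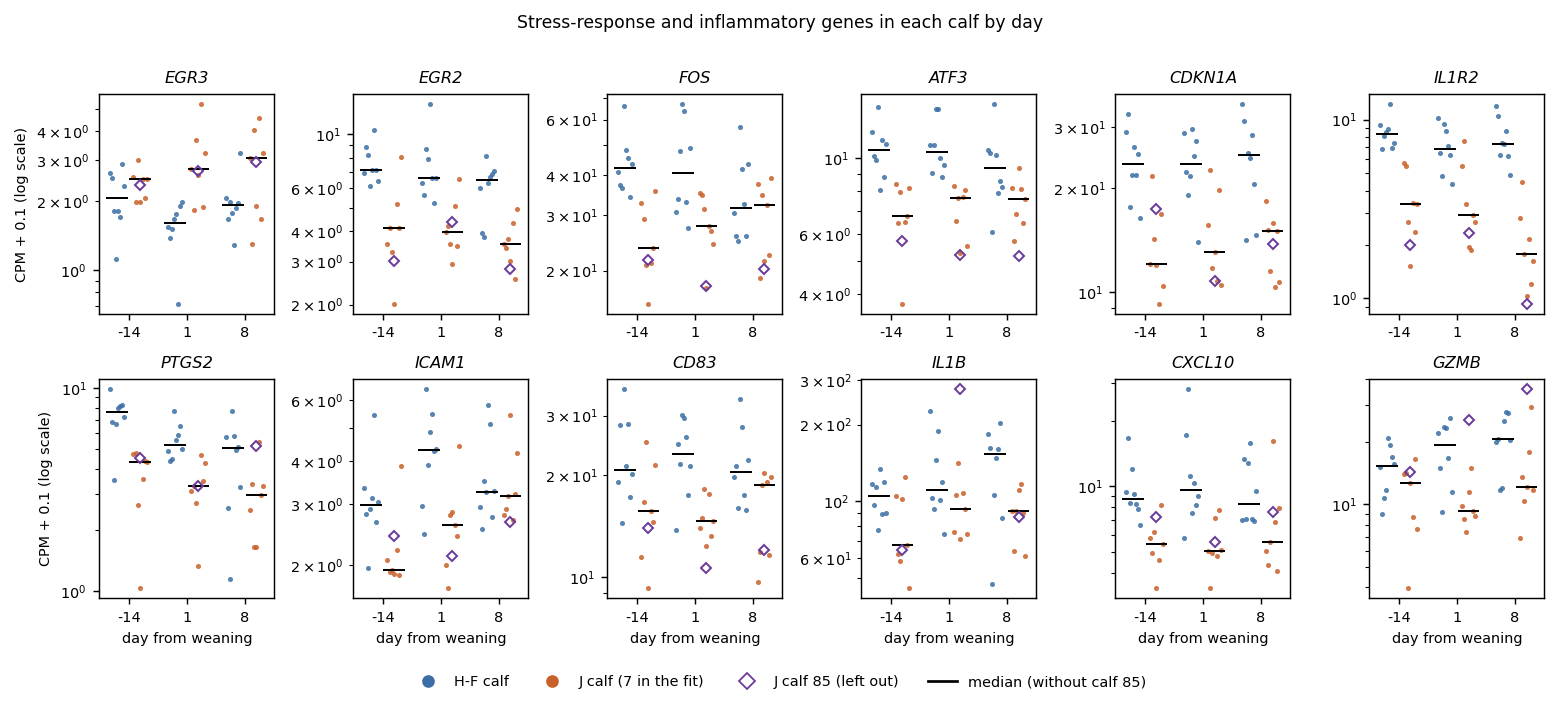
CPM (log axis, 0.1 added) of 12 stress-response and inflammatory genes in each calf at d -14, d 1 and d 8, with H-F and J calves side by side, medians without J calf 85 as bars and J calf 85 as an open diamond. J medians lie below H-F medians on d 1 in all panels except EGR3, and J calf 85 is the highest calf for IL1B on d 1 alone.

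All 5 named genes of the arachidonic acid pathway, of 36 on the list, were decreased in J, at a median of -0.81. They too were named only because the study had called them. Besides PTGS2 these were LTC4S, which makes leukotriene C4 (1.82 to 7.77 CPM in H-F, 0.670 to 2.62 CPM in J calves, log2 fold change -1.17, SE 0.35, adjusted p = 0.0297 by edgeR), and LTB4R, the leukotriene B4 receptor of neutrophils (2.92 to 6.30 CPM in H-F, 1.71 to 3.25 CPM in J calves, log2 fold change -0.81, SE 0.20, adjusted p = 0.0089 by edgeR). EPHX2, an epoxide hydrolase of fatty acid epoxides, had 1.47 to 6.399 CPM in H-F and 0.175 to 2.04 CPM in J calves (log2 fold change -1.52, SE 0.48, adjusted p = 0.0387 by edgeR). PTGS1, the constitutive cyclooxygenase that platelets carry, was called at d 1 only, at -0.61 (SE 0.21, adjusted p = 0.0535 by edgeR). PTGS1 was lost without H-F calf 32, H-F calf 48 or J calf 7 (log2 fold changes of -0.56 to -0.47) and with all 16 calves (-0.48).

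Interferon genes were divided. IFNB1, listed as interferon beta-1 and 1 of several bovine copies, had 0.637 to 2.50 CPM (median 1.398) in H-F and 1.94 to 5.48 CPM (median 3.15) in J calves (log2 fold change 1.38, SE 0.33, adjusted p = 0.00813 by edgeR), and the interferon-induced GTPase GBP4 had 17.8 to 58.1 CPM in H-F and 37.5 to 89.5 CPM in J calves (log2 fold change 0.78, SE 0.25, adjusted p = 0.0403 by edgeR). CXCL10, a chemokine induced by interferon gamma, was decreased, with 5.67 to 28.1 CPM (median 9.57) in H-F and 3.29 to 7.68 CPM (median 4.925) in J calves (log2 fold change -1.18, SE 0.29, adjusted p = 0.0105 by edgeR). IDO1, which degrades tryptophan, had 120.5 to 271 CPM in H-F and 74.2 to 152 CPM in J calves (log2 fold change -0.66, SE 0.18, adjusted p = 0.0176 by edgeR), a call lost without H-F calf 49 (-0.55) and with all 16 calves (-0.49), since J calf 85 had 228 CPM.

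The other 9 named members, all antiviral genes of the type I interferon response (ISG15, IFIT1, IFIT3, IFIT5, IFI44, OAS1X, OAS1Y, OAS2 and RSAD2), were not called at d 1. Their log2 fold changes ran from -0.38 to 0.01 at d 1, from -1.27 to -0.61 at d -14 and from -0.54 to -0.17 at d 8. OAS1X had 93.7 to 391.5 CPM (median 131) in H-F and 66.7 to 199.6 CPM (median 119) in J calves at d 1, and ISG15 had 42.2 to 189 CPM (median 82.3) and 24.8 to 151.5 CPM (median 73.6). These genes had a name here because the study had called them on some day, and 8 of the 9 were called at d -14, so a smaller difference at d 1 is partly fixed by how they came to be named. The shift from d -14 to d 1 ran from 0.34 to 1.28, with unadjusted p of 0.0594 to 0.359 without the block and 0.0115 to 0.172 with it, and adjusted p of 0.946 for each of the 9 with the block in edgeR.

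Of 5 named genes of the complement and receptor list (27 members) 3 were decreased, and of 4 named lipid genes (36 members) 3. Over all genes tested 1.84% were decreased DEG. These genes too had a name only because the study had called them, so the counts say nothing about the lists. C3AR1 and C5AR1, the receptors of the C3a and C5a fragments, had log2 fold changes of -0.86 (SE 0.29, adjusted p = 0.0466 by edgeR) and -0.62 (SE 0.21, adjusted p = 0.0476 by edgeR). C5AR1 ranged from 74.9 to 234 CPM in H-F and 57.02 to 118 CPM in J calves, and was lost without H-F calf 20, H-F calf 33 or J calf 13 (-0.55 to -0.44). A gene with the symbol C2 but the name of complement factor B differed by -1.13 (SE 0.37, adjusted p = 0.0437 by edgeR). MSR1, a scavenger receptor of macrophages, had 8.71 to 23.3 CPM (median 13.9) in H-F and 3.85 to 9.58 CPM (median 6.63) in J calves, a log2 fold change of -1.24 (SE 0.28, adjusted p = 0.0062 by edgeR). OLR1, a receptor for oxidised low-density lipoprotein, differed by -0.66 (SE 0.16, adjusted p = 0.0105 by edgeR; -0.58 without H-F calf 33, which ended the call), and LPL, lipoprotein lipase, by -1.004 (SE 0.25, adjusted p = 0.0121 by edgeR), with 26.1 to 60.6 CPM in H-F and 13.2 to 30.1 CPM in J calves.

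Markers of several blood cells moved with these genes. All 3 named monocyte markers, of 20 on the list, were decreased, but a marker had a name only if the study had called it. CLEC10A, a lectin of dendritic cells and macrophages, had 0.625 to 2.14 CPM in H-F and 0.0635 to 0.444 CPM in J calves with no overlap (log2 fold change -2.27, SE 0.40, adjusted p = 0.000542 by edgeR), and AIF1 had 88.0 to 192 CPM (median 171) in H-F and 81.6 to 104 CPM (median 87.4) in J calves (log2 fold change -0.82, SE 0.16, adjusted p = 0.00171 by edgeR). None of the 7 J calves reached 1 CPM of CLEC10A on any day, so it was tested only because H-F calves were high. The summed CPM of the 3 markers ran from 102 to 210 in H-F and from 87.0 to 109.5 in J calves. AIF1 made up most of it, as the median sums were 186 CPM in H-F and 91.3 CPM in J calves. Of 4 named neutrophil markers, AQP9 (-0.91, adjusted p = 0.000686 by edgeR) and VNN2 (-0.67, adjusted p = 0.0101 by edgeR; -0.55 without J calf 13, which ended the call) were decreased, CXCR2 differed by -0.32 (adjusted p = 0.439 by edgeR) and FCGR3A by -0.56 (adjusted p = 0.0919 by edgeR; -0.62 and called with all 16 calves, adjusted p = 0.0347). The 4 neutrophil markers, named of 21 on the list, summed to 593 to 996 CPM in H-F and 378 to 646 CPM in J calves. Gaps in the monocyte and neutrophil sums are partly fixed by how their genes came to be named. The part of cell shares in the inflammatory genes was not tested.

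Platelet genes were called in 1 direction. Of 22 list members 11 had a name, because the study had called them on some day. Of these 11, 7 were decreased and 0 increased, and the median log2 fold change was -0.97. PF4, platelet factor 4, had 231 to 768 CPM (median 382) in H-F and 58.6 to 288.5 CPM (median 223) in J calves (log2 fold change -1.26, SE 0.31, adjusted p = 0.0114 by edgeR). TREML1, a receptor of platelet granules, had 2.67 to 10.96 CPM (median 6.93) in H-F and 1.30 to 4.57 CPM (median 2.04) in J calves (log2 fold change -1.39, SE 0.36, adjusted p = 0.0141 by edgeR). GP6, the collagen receptor, differed by -0.92 (SE 0.25, adjusted p = 0.0189 by edgeR). These 3 genes were still called when any 1 calf was left out. The calls of PPBP (-0.86), THBS1 (-0.85) and GP5 (-1.23) were lost without any 1 of 4, 5 and 10 calves, J calves 9 and 57 among them for each, at an adjusted p of 0.101 to 0.195 by edgeR. GP9, P2RY12, P2RX1 and VWF differed by -1.01 to -0.48 and were not called, but with all 16 calves GP9 (-1.07, adjusted p = 0.0561 by edgeR) and VWF (-0.69, adjusted p = 0.0862 by edgeR) were, which made 9 decreased members. The 11 genes summed to 378 to 976 CPM in H-F and 127 to 416 CPM in J calves, and J calf 85 had 206.5 CPM. Much of the sum was PF4, with a median of 382 CPM in H-F calves beside a median sum of 557.5 CPM. A gap in this sum is partly fixed by how the genes came to be named.

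Of 6 named genes of cytotoxic lymphocytes (24 on the list) 4 were decreased, and of 4 named genes of eosinophils, basophils and mast cells (20 on the list) 3. Over all genes tested 1.84% were decreased DEG. These members had a name only because the study had called them on some day, so the counts say nothing about the lists. CCL5, a chemokine of T and natural killer cells, had 25.3 to 61.7 CPM (median 40.4) in H-F and 13.9 to 26.3 CPM (median 19.4) in J calves (log2 fold change -1.12, SE 0.20, adjusted p = 0.000855 by edgeR). The granzymes, proteases that kill target cells, were decreased as GZMA (-0.92, SE 0.20, adjusted p = 0.0051 by edgeR), GZMB (-0.88, SE 0.27, adjusted p = 0.0317 by edgeR) and GZMM (-0.70, SE 0.23, adjusted p = 0.0417 by edgeR). GZMB was called at d 1 only, with 9.15 to 26.1 CPM in H-F and 7.28 to 14.9 CPM in J calves, and with all 16 calves it was not called (-0.63, adjusted p = 0.106 by edgeR), as J calf 85 had 25.4 CPM. GZMM was lost without J calf 9 (adjusted p = 0.105 by edgeR). The natural killer receptors NCR1 and KLRB1 differed by -0.46 and -0.54 and were not called. KIT, the receptor of stem cell factor on mast cells and progenitors, had 20.3 to 42.1 CPM (median 28.1) in H-F and 14.4 to 26.7 CPM (median 16.3) in J calves (log2 fold change -0.72, SE 0.18, adjusted p = 0.0116 by edgeR) and was called at d 1 only. The histamine receptor HRH4 (-0.59, adjusted p = 0.0156 by edgeR) and SIGLEC8, whose name in the study's table is that of another Siglec (-0.65, adjusted p = 0.0585 by edgeR), lost their calls without any 1 of 8 and 6 calves, at -0.58 to -0.51 and -0.63 to -0.54, and HRH4 also with all 16 calves (-0.44).

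Of 12 named B cell genes (20 on the list), 3 were increased in J, 0 were decreased and 9 did not reach the thresholds. The log2 fold changes of the 12, named because the study had called them on some day, ran from 0.37 to 1.004 (median 0.49). With all 16 calves 5 were called, CD22 (0.63, adjusted p = 0.013 by edgeR) and EBF1 (0.60, adjusted p = 0.0188 by edgeR) in addition. TNFRSF13C, the receptor of the survival factor BAFF, had 1.23 to 6.03 CPM (median 4.13) in H-F and 4.60 to 12.1 CPM (median 9.26) in J calves (log2 fold change 1.004, SE 0.28, adjusted p = 0.0201 by edgeR). BTLA differed by 0.65 (SE 0.24, adjusted p = 0.0717 by edgeR), a call lost without any 1 of 8 calves (J calves 9, 13, 57 and 77, or H-F calves 27, 32, 33 and 48, with adjusted p of 0.10 to 0.278 by edgeR). The 12 genes summed to 822 to 1388 CPM (median 1094) in H-F, 1001 to 2290 CPM (median 1433) in 7 J calves and 2182 CPM in J calf 85. At d -14, 11 of the 12 were called. MS4A1, the gene of CD20, differed by 0.68 at d -14, 0.38 at d 1 and 0.34 at d 8. Within the H-F calves MS4A1 was 0.42 higher at d 1 than at d -14 with calf as a block (adjusted p = 0.00216 by edgeR), and within the J calves 0.06 (adjusted p = 0.773 by edgeR). The test of that contrast between breeds gave -0.30 without the block (SE 0.22, unadjusted p = 0.179) and an unadjusted p of 0.00114 and an adjusted p of 0.551 with it in edgeR. No marker of T cells or plasma cells could be matched to a symbol. Of the red cell precursor genes, XK was decreased by 0.73 (adjusted p = 0.0648 by edgeR), a call lost without H-F calf 20, H-F calf 32, J calf 13 or J calf 57 (adjusted p of 0.118 to 0.134 by edgeR), and SELENBP1 differed by -0.16. IL23R, the only named gamma delta T cell gene, differed by -0.48 and was not called. LCN2 and MPO, of the acute phase and neutrophil granule list, were not called and differed upward in J, unlike the neutrophil markers above. LCN2 differed by 0.58 (adjusted p = 0.0625 by edgeR), just under the fold threshold, with 6.67 to 16.4 CPM in H-F and 12.3 to 21.9 CPM in J calves. MPO differed by 0.71 (adjusted p = 0.217 by edgeR) and was called with all 16 calves (0.84, adjusted p = 0.0874 by edgeR).

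**Figure D4:**
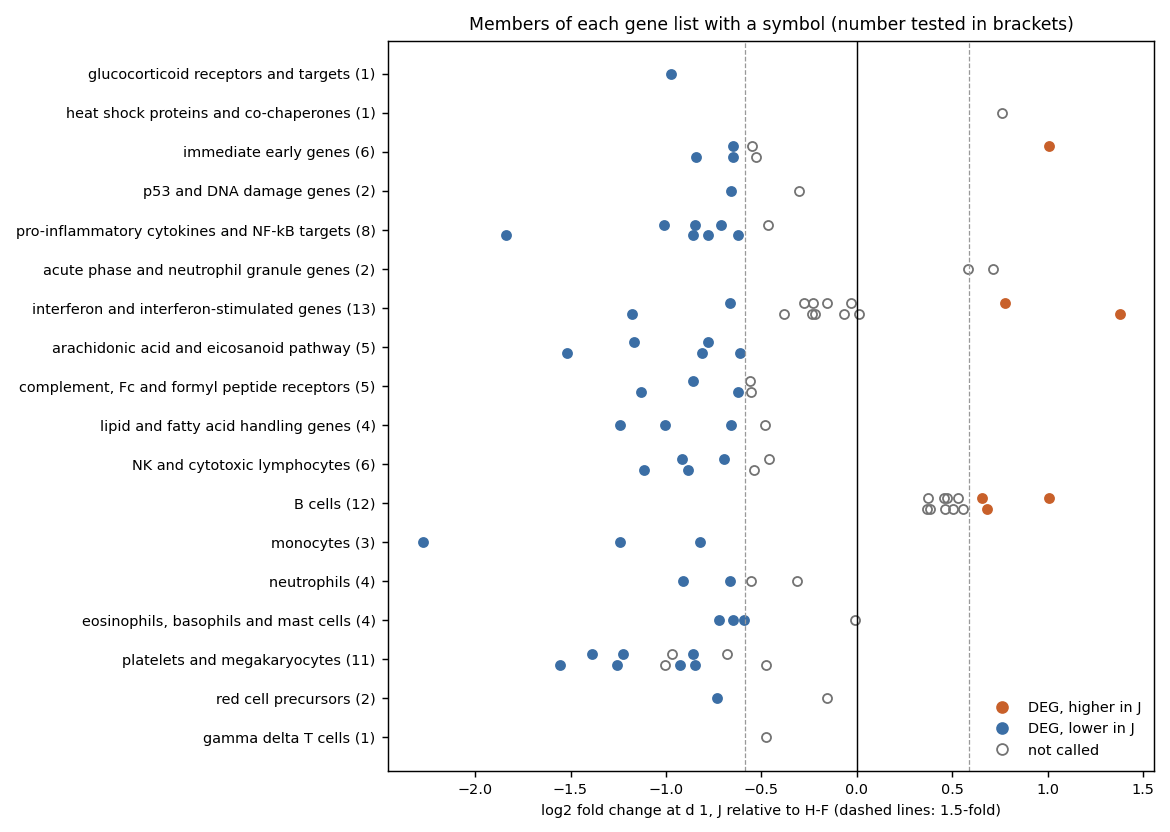
Log2 fold change at d 1 (J relative to H-F, x axis) of every named member of each list (y axis, number tested in brackets), filled where called and open where not, with dashed lines at 1.5-fold. Platelet, monocyte, eicosanoid and inflammatory genes lie to the left and B cell genes to the right, and 9 interferon-stimulated genes lie between -0.38 and 0.01. Members have a name only because the study called them on some day.

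Genes particular to d 1 were sought next. Of the 473 DEG, 107 (0.844% of genes tested), 73 increased and 34 decreased, were called at neither d -14, where 520 genes (4.1%) were called, nor d 8, where 397 genes (3.13%) were. Calls on 1 day do not show that the days differ. On the other days 106 of the 107 had the same sign at d -14 and 107 of 107 at d 8. The same calves were measured on all days, so a shared sign is not an independent repeat. The median difference of the 73 increased genes, on the log2 scale, was 0.66 on d 1 itself, against 0.47 at d -14 and 0.42 at d 8, and that of the 34 decreased genes was -0.72, against -0.49 and -0.56. Some decline from d 1 to the other days is built into a choice made on d 1. J calf 9 was the highest J calf in 61 of the 73 increased genes, and without this calf 22 of the 107 were still called at d 1. With all 16 calves 278 genes were called on d 1 alone, of which 61 were among the 107.

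The increased genes of smallest p in this set that had a symbol, next to EGR3, were WDR27, ATG9B, FARP2 and SLC25A42. WDR27, a WD repeat protein, had 2.18 to 3.36 CPM (median 2.95) in H-F and 3.39 to 8.17 CPM (median 3.996) in J calves, without overlap (log2 fold change 0.80, SE 0.15, adjusted p = 0.00145 by edgeR). ATG9B, a membrane protein of autophagy, had 0.994 to 2.11 CPM (median 1.45) in H-F and 1.71 to 3.55 CPM (median 2.45) in J calves (log2 fold change 0.79, SE 0.17, adjusted p = 0.00399 by edgeR; 0.24 at d -14 and 0.44 at d 8). FARP2, an exchange factor for small GTPases, differed by 0.74 (SE 0.17, adjusted p = 0.00644 by edgeR), and SLC25A42, which carries coenzyme A into mitochondria, by 0.72 (SE 0.17, adjusted p = 0.00813 by edgeR; 0.51 without J calf 9, which ended the call). In these 4 genes J calf 85, at 5.36 to 16.1 CPM, was higher than all other J calves.

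The decreased genes of smallest p that had a symbol, next to KIT, were ALDOC, SFXN3, CLDN12 and BATF3. ALDOC, an aldolase of glycolysis, had 76.7 to 124 CPM (median 86.0) in H-F and 48.9 to 69.4 CPM (median 57.6) in J calves without overlap (log2 fold change -0.62, SE 0.11, adjusted p = 0.000855 by edgeR). On the other days ALDOC differed by -0.53 and -0.57, just under the fold threshold. SFXN3, a mitochondrial serine carrier (-0.63), CLDN12, a claudin (-0.59), and BATF3, a transcription factor of dendritic cells (-0.60), likewise had d -14 and d 8 values of -0.58 to -0.36. Leaving out J calf 9 ended all 4 calls, as did H-F calf 32 for ALDOC, CLDN12 and BATF3, J calf 60 for SFXN3, H-F calf 33 and J calf 13 for CLDN12 and BATF3, and 5 further calves for CLDN12, with log2 fold changes of -0.58 to -0.48. Only 11 of the 107 genes were called whichever calf was left out. The 10 with a symbol were WDR27, ATG9B, FARP2, EGR3, KIT, ZNF641, GZMB, ICAM1, COL15A1 and a 5S ribosomal RNA gene. Of these, GZMB was not called with all 16 calves (-0.63, adjusted p = 0.106 by edgeR). The 5S gene was counted from uniquely mapped reads of poly(A) RNA, so its count is uncertain.

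**Figure D5:**
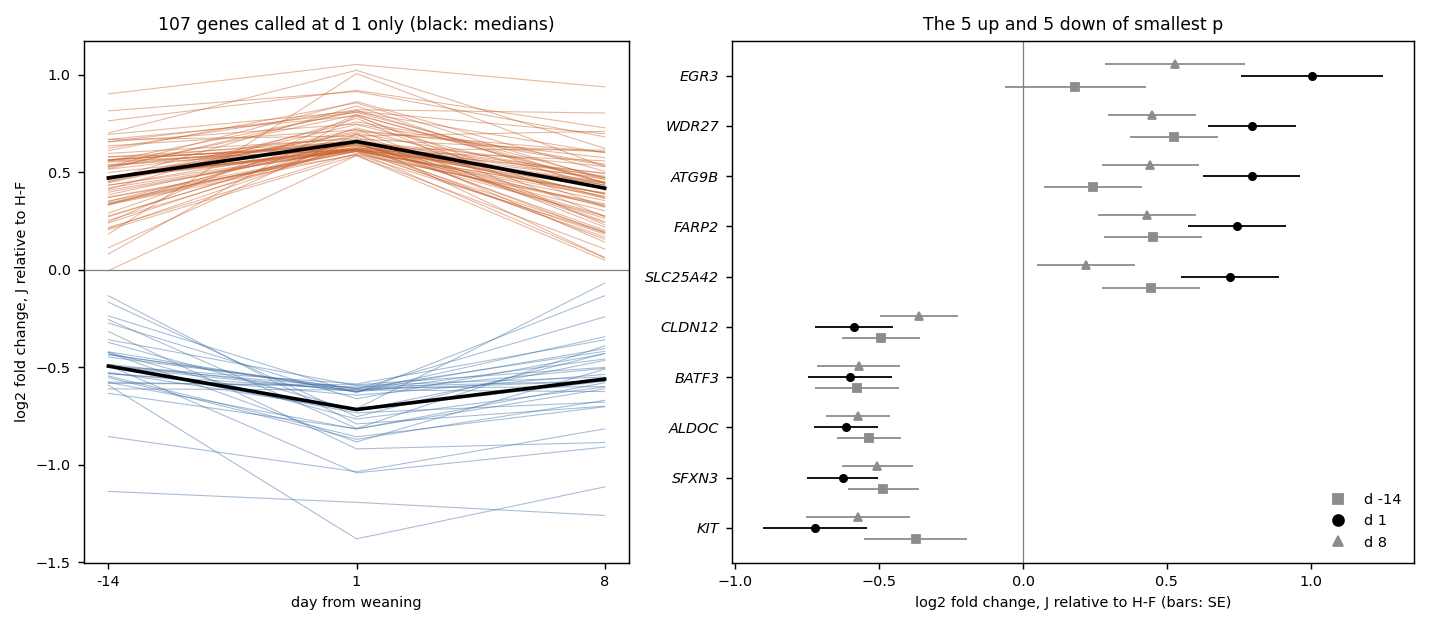
Left, log2 fold change (J relative to H-F) on the 3 days of the 107 genes called at d 1 only, 1 line a gene, with medians in black; right, the 10 genes of smallest p with the SE as bars. The lines peak on d 1, the day they were chosen on, and nearly all stay on the same side of 0 on all days, in the same calves.

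The test of the difference itself called 0 genes in edgeR. No gene's breed difference at d 1 departed from the mean of d -14 and d 8 (0.0% called, with 202 genes at an unadjusted p under 0.05, which is 1.59% of the genes), from that at d -14 (0.0%, 102 genes or 0.805%) or from that at d 8 (0.0%, 323 genes or 2.55%) at an adjusted p under 0.1 in edgeR. This fit has no calf term, so lasting differences between calves add to the spread, and it is less able to find a departure. With calf as a block, which removes the differences between calves that persist over the days, the counts were also 0. Then 730 genes (5.76%), 594 genes (4.69%) and 1053 genes (8.31%) had an unadjusted p under 0.05. DESeq2 and limma-voom called 0 genes in each contrast too, and against the mean of the other days 235 genes had an unadjusted p under 0.05 in DESeq2 and 823 in limma-voom. The smallest adjusted p with the block in edgeR was 0.208, against d -14.

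PRG3, an eosinophil granule protein, had 0.0335 to 1.36 CPM in H-F and 0.137 to 0.921 CPM in J calves at d 1, and differed by -0.01, while it differed by 1.84 at d -14 and 1.65 at d 8 (departure -1.75, SE 0.74, unadjusted p = 0.0231). Most of its values lay near or under 1 CPM, where counts are few. The zinc finger gene ZNF641 departed by 0.57 (SE 0.25, unadjusted p = 0.0289), DYSF, a membrane repair protein, by 0.54 (SE 0.25, unadjusted p = 0.0386) and the sodium channel SCN9A by 0.53 (SE 0.26, unadjusted p = 0.0446). With calf as a block in edgeR, the unadjusted p was 0.0170 for PRG3, 0.0111 for ZNF641, 0.0122 for DYSF and 0.0360 for SCN9A. ZNF641 was called at d 1 only, at 0.69 (adjusted p = 0.0278 by edgeR). With the block, EPHX4 and TCTN1 were among the 6 of smallest p that had a symbol, as were IL1R2, EGR3 and ZNF641. EPHX4, an epoxide hydrolase, departed by -0.35 (SE 0.11, unadjusted p = 0.00386 by edgeR). TCTN1, a protein of the base of the cilium, departed by -0.22 (SE 0.08, unadjusted p = 0.0103 by edgeR). EPHX4 was increased in J on all 3 days, by 1.21, 0.61 and 0.69 in turn, and leaving out any 1 of 8 calves ended the d 1 call (0.55 to 0.60), as did keeping all 16 calves (0.584). DYSF is carried by neutrophils and monocytes and had 83.2, 83.7 and 109 CPM at the median of the H-F calves, and 61.6, 92 and 78.1 CPM in J calves at d -14, d 1 and d 8. Against the mean of the other days, all of these had adjusted p of 0.796 or 0.9995 in edgeR. Against d -14 alone with the block, EPHX4 departed by -0.61 (SE 0.13, unadjusted p = 4.914e-05 by edgeR). Its adjusted p there was 0.208 by edgeR, the smallest value given above.

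J calf 85 lay outside the other J calves in genes that differed on all days and in others that differed mainly on d 1. For CHGA it had 0.148, 0 and 0.0298 CPM at d -14, d 1 and d 8, and the other J calves never fell under 0.987 CPM. For EXTL1 it had 0.0590, 0.222 and 0.179 CPM, for ADGRA3, an adhesion receptor, 1.24, 1.11 and 0.744 CPM, and for TMEM132B 0.502, 0.259 and 0.684 CPM, under the lowest of the other J calves on each day. SERPINB4, a protease inhibitor, was at 0.185 CPM at d 1, under the 0.419 CPM of the lowest other J calf. IL1B was 276 CPM at d 1 against 64.0 and 86.9 CPM at d -14 and d 8, the CCL3 gene ENSBTAG00000003289 4.69 CPM against 1.06 and 1.22 CPM, and SHE 3.62 CPM against 0.708 and 0.952 CPM. On all 3 days it was above the other J calves for NKG2A and NKG2C, receptors of natural killer cells, and for SLC9A5, a sodium/hydrogen exchanger. At d 1 NKG2A and NKG2C were at 12.2 and 3.99 CPM at d 1, above the 4.68 and 1.59 CPM of the highest other J calf, and SLC9A5 was at 21.7 CPM against 8.82 CPM. With this calf kept, the calls of NKG2A, NKG2C, SHE, TMEM132B (0.75, adjusted p = 0.168 by edgeR) and the second CCL3 gene were lost and SLC9A5 differed by 1.16 in place of 0.66 on the log2 scale.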

How the data were processed

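Whole blood was collected in Tempus tubes, and poly(A) RNA was sequenced from a TruSeq v2 kit that does not mark strand, so reads of overlapping antisense genes cannot be told apart. The authors checked reads with FastQC 0.10.0, aligned them to UMD3.1 with STAR, and deposited raw counts of uniquely mapped reads per Ensembl gene from HTSeq; reads of near-identical genes are thus under-counted. The 92 ERCC spike-ins were left out. Genes with over 1 CPM in at least 8 libraries were kept, and counts were fitted in edgeR 4.0.16 (R 4.3.3; TMM, quasi-likelihood test) over 45 libraries of 15 calves, with limma 3.58.1 (voom) and DESeq2 1.42.0 as alternatives. The study removed 1 J calf without naming it in the labels, and it was taken to be calf 85 because the mean log2 CPM listed by the study could be matched only without that calf. Between breeds, calves are separate animals, and same-numbered libraries on different days come from the same calf: their deviations correlated at 0.404 to 0.846, and those of different calves at -0.577 to 0.298. Calf as a block was therefore an alternative for contrasts between days.

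Symbols came from the study's gene tables (701 of 800 genes, 665 of them also in RefSeq). Only genes with a symbol could be named, and 404 of the 473 DEG at d 1 had one. Named genes were the 6 increased and 6 decreased DEG of smallest p at d 1, the 5 and 5 of smallest p called at d 1 only, the 6 of smallest p in the contrast with the other days (with and without block), up to 4 DEG of each gene list, 20 fixed stress genes, and the 5 highest and 5 lowest genes of J calf 85; further list members are named where a count is 5 or fewer or where they were singled out after their values were seen. The rule, the comparison and the gene lists were chosen with earlier results of these data known. Results for some of these genes are not reported here. The scripts were tested on simulated data.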

Additional observations from a re-analysis of the deposited data

Results flagged for a closer look

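Among 146 groups of calves at d 1 (8 H-F or 8 J calves), 16 held a calf whose value was far from the nearest of its breed. Chance alone is taken to give about 1 in 20 groups, but that rate may not hold here. The genes were chosen partly by their d 1 values and the same calves recur across genes, so no excess over chance is read from the 16. In the H-F calves, calf 33 was the highest for EXTL1 (1.39 CPM, next 0.542), EGR2 (13.1 CPM, next 8.54) and IL18RAP (23.5 CPM, next 12.9). Calf 32 was the highest for ALDOC (124 CPM, next 93.4) and calf 27 for CLEC10A (2.14 CPM, next 1.19), and calf 48 was the lowest for SLC25A42 (3.13 CPM, next 4.25). In the J calves, calf 85 was the highest for WDR27 (15 CPM, next 8.17), IFNB1 (11.2 CPM, next 5.48), GZMB (25.4 CPM, next 14.9) and IL1B (276 CPM, next 141.5), and the lowest for AIF1 (56.7 CPM, next 81.6). Calf 7 was the highest for PRSS2 (1.70 CPM, next 1.03), calf 77 for ICAM1 (4.31 CPM, next 2.76), calf 57 for GZMM (5.54 CPM, next 3.59) and calf 9 for BTLA (55.5 CPM, next 33.1), and calf 57 was the lowest for ZNF641 (0.716 CPM, next 1.08). J calf 85 took no part in the tests.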

How the results depend on the processing

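The 473 DEG at d 1 became 510 with DESeq2, 468 with limma-voom, 477 with RLE size factors, 639 with no filter on low counts, 489 with the exact test, 345 with the 15 libraries of d 1 alone and 354 at an adjusted p under 0.05. They became 761 with all 16 calves and 2282 with no fold threshold. Leaving out each calf in turn gave 284 (without J calf 9) to 568 (without J calf 6). Genes called at d 1 only were 34 (without J calf 9) to 180 (without J calf 60), 278 with all 16 calves and 236 with no filter. With calf as a replicate block the departure of d 1 from the other days called 0 genes in each of the 3 contrasts. In alternatives added after the data were seen, the block with all 16 calves called 2 genes against d -14 (smallest adjusted p = 0.0561 by edgeR), and the block without 1 calf called 0 to 2 genes against d -14 (2 without H-F calf 20), 0 to 1 gene against d 8 (1 without J calf 57) and 0 genes against the mean of both; the causes were not tested. Of the 72 named genes, none that was called at d 1 turned direction under DESeq2, limma-voom, all 16 calves or leaving out a calf, and 22 lost their call without at least 1 calf. There was no unweaned group, so age and weaning cannot be told apart over the days, and 7 against 8 calves limits small differences.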

Other observations

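Some genes that no list held also differed at d 1, and these were chosen after their values were seen. FFAR1 and GPR41, receptors of long-chain and short-chain fatty acids, are neighbours in the RefSeq order of ARS-UCD2.0 (chromosome 18) and had log2 fold changes of 1.07 and 1.06 (adjusted p = 0.0184 and 0.0111 by edgeR). FFAR1 had 1.47 to 3.35 CPM in H-F and 2.41 to 12.1 CPM in J calves, and its call was lost without J calf 9 (0.71, adjusted p = 0.102 by edgeR). On chromosome 19, the growth factor receptor ERBB2, the adaptor GRB7, with 1 coding gene between them, and the pore-forming protein GSDMB, 2 coding genes further on, were increased by 1.01, 0.97 and 0.67. ERBB2 had 27.8 to 70.5 CPM in H-F and 52.96 to 179 CPM in J calves, and GSDMB was lost without J calf 9 or J calf 13 (0.49 and 0.58). All 5 were also called at d -14 and d 8.

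RNASE4 and ANG, adjacent ribonuclease genes on chromosome 10, had log2 fold changes of -0.86 and -0.75 (adjusted p = 0.0057 and 0.0222 by edgeR), with 56.3 to 106 CPM and 24.4 to 57.8 CPM of RNASE4 in H-F and J calves. MTUS1, a microtubule-associated protein, was decreased by 2.58 without overlap between the breeds (1.54 to 12.96 CPM in H-F, 0.770 to 1.502 CPM in J calves). RYR3, a calcium release channel, was increased by 2.68 (adjusted p = 0.00628 by edgeR), with 0.904 to 10.1 CPM in H-F and 4.38 to 39.6 CPM in J calves. PDGFRA, a growth factor receptor next to KIT on chromosome 6, had a log2 fold change of -1.498 and lost its call without J calf 13 or J calf 9 (adjusted p of 0.101 and 0.106 by edgeR).

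Within breeds, 0 genes were differentially expressed between d 1 and d -14 in either breed without the calf block in edgeR. With calf as a block, 32 genes were differentially expressed between d 1 and d -14 in H-F calves and 7 in J calves in edgeR, and 0 in either breed between d 1 and d 8. With all 16 calves and the block the J count was 72, and the difference between the breeds in these counts was not tested.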
